A study of Mus musculus with 12 samples.

Results

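The 9 genes described here belong to cell death signalling and were followed through 12 RNA-seq libraries of mouse kidney tubuloids. They are the rows of the deposited gene table whose symbol is Fas, Ripk1, Ripk3, Mlkl, Casp8, Bax, Bcl2l1, Bcl2l11 or Mcl1, and all 9 were found among its 20819 genes. Tubuloids are small epithelial structures grown from kidney tubule cells, here from the renal cortex of 4 mice, all wildtype, and kept in Matrigel, a basement membrane gel. A vehicle group, a group given myoglobin, the haem protein of muscle that the series' design names as the cause of tubular injury, and a group given myoglobin with the synthetic glucocorticoid dexamethasone at 100 nM were each treated for 12 h, with 4 libraries per group. Dexamethasone alone is not analysed here, so its effect was measured only on top of myoglobin. Age, strain and sex of the mice are not given in the labels used here, which number the libraries of a group from 1 to 4 without tying a number to a mouse.

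Fas is a receptor at the cell surface. When its ligand binds, it recruits the adaptor FADD and the initiator protease caspase-8, which starts apoptosis. The kinases RIPK1 and RIPK3 and the membrane-disrupting protein MLKL form the necroptosis branch, which runs when caspase-8 is blocked, and both forms of death are known from injured kidney tubules. At the mitochondrion the BCL-2 family sets the balance. BAX opens the outer membrane, BCL-XL (from Bcl2l1) and MCL-1 hold it shut, and BIM (from Bcl2l11) is a BH3-only protein that binds and neutralises the guards. Much of this machinery is controlled by cleavage, phosphorylation and protein stability, which messenger RNA levels do not show.

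The deposited values, read from their whole-number steps, are read numbers of each gene scaled by library size factors and rounded. Those of a library summed to 5.25 to 5.29 M (vehicle), 5.32 to 5.35 M (myoglobin) or 5.34 to 5.73 M (both agents). Replicate 4 of the group with both agents stood apart: an estimated 3.25 M reads lay behind it, against 4.85 to 5.92 M in the other 11 libraries, and 2179 genes were listed at 0 in it, against 1051 to 1544. The changes of the members that this library moves most are given with and without it. The 7 markers of tubular epithelium summed to 11795 in it and to 8228 to 9117 in the other 11 libraries, so that the labelled epithelium was present. Of the proximal tubule markers, Lrp2 (megalin) lay at 216 to 456, Slc34a1, Cubn and Slc5a2 between 0 and 7, and Aqp1 and Hnf4a between 3 and 23. Endothelial markers summed to 5 to 15. Leukocyte markers summed to 486 to 694, mostly Ptprc at 320 to 484. Cd68 lay at 62 to 116, Lyz2 at 28 to 112 and Adgre1 at 1 to 28. Csf1r was at 2 to 19, Cd79a at 4 to 11 and Itgam at 1 to 7, and Cd3e is not used here. In bulk RNA, fewer cells of a type and less RNA per cell cannot be told apart.

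Myoglobin against vehicle asks what the injuring agent does without a glucocorticoid. Fas rose 2.66-fold, and it was the only one of the 9 members that passed the test, with 1 rising and 0 falling. Among all 14558 genes tested, 18.3% passed in this comparison, 8.71% higher and 9.62% lower, so that 1 member of 9 is near the background share. A pass here means a Benjamini-Hochberg adjusted p below 0.05 in limma's moderated linear model on log2(value + 1), and a gene is said to rise or fall if it passed. At an unadjusted p below 0.05 the members numbered 3 (Fas, Bax and Mlkl), against 30.2% of all genes. The median log2 change of the members was 0.02, beside 0.00 for all tested genes. Upper-quartile scaling moved the split of all passing genes from 1268 higher and 1401 lower to 941 and 1797, and the call of Fas held under each of the 25 alternatives run.

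Fas (ENSMUSG00000024778, chromosome 19, 34290666 to 34327772, forward strand, mm10) stood at 56, 45, 54 and 47 in vehicle replicates 1 to 4 and at 154, 146, 134 and 111 with myoglobin. Each myoglobin library was above each vehicle library. The log2 change was 1.41 ± 0.13 (SE), a 95% interval of 2.18-fold to 3.23-fold (limma adjusted p 1.84e-06), which placed Fas at rank 107 among 14558 genes by rise. With both agents the 4 libraries gave 131, 117, 126 and 90. They overlapped the myoglobin libraries and stayed clear of the vehicle libraries. The change from myoglobin alone was -0.23 ± 0.13 on the log2 scale, with an interval of -0.52 to 0.05, and did not pass (adjusted p 0.316). Without replicate 4 of both agents, where Fas was lowest, it was -0.12. Fas was also lowest in replicate 4 of myoglobin, at 111, which that fit kept, so that the removal was one-sided. Against vehicle Fas rose by 1.18 ± 0.13 with both agents (adjusted p 1.05e-05), or by 1.29 without replicate 4 of both agents.

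The stretch upstream of Fas is shown because Fas had the largest change of the 9, together with that of Bcl2l11, the member that fell when dexamethasone was added. Both are the 250 bases before the transcription start in RefSeq, build GRCm38.p6, read 5′ to 3′ on the forward strand at chr19:34290409-34290658 and chr2:128125788-128126037. Capitals mark matches, on either strand, to an NF-kB motif (3 G, any 5 bases, 2 C) and to the FOXO motif GTAAACA.
Fas: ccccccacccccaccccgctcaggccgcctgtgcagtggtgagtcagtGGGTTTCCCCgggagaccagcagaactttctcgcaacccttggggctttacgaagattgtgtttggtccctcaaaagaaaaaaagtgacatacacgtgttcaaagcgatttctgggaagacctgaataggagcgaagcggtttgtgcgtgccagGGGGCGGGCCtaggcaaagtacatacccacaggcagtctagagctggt
Bcl2l11: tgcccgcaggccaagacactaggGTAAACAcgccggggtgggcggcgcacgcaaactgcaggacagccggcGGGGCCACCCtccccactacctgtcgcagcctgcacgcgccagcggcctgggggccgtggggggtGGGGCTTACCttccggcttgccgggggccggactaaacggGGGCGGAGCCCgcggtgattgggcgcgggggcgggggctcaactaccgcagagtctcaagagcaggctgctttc
Fas holds NF-kB matches that begin 202 and 48 bases upstream of the start. Bcl2l11 holds such matches at 179, 114, 74 and 73 bases, the last pair overlapping, and 1 FOXO match at 227 bases. Of 32851 promoters of this length, 45.8% hold the NF-kB motif and 3.17% the FOXO motif. The fixed letters of the NF-kB motif are all G or C. These bases make up 56.4% of the Fas stretch and 72.0% of that of Bcl2l11, against a mean of 53.2% over all promoters. All 9 members matched the RefSeq table, with 13 start sites. Counted over start sites, as the shares of all promoters are, the NF-kB motif was found upstream of 7 of the 13 (in 6 genes), the FOXO motif of 1, the antioxidant motif TGACNNNGC of 1 (Bcl2l1), against 10.2% of all promoters, and the interferon-stimulated element of 0, against 2.98%. The half-site AGAACA of the glucocorticoid receptor was found at 0 of the 13, against 16.1% of all. A match is a description of the letters, and neither a match nor its absence shows binding.

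**Figure D1:**
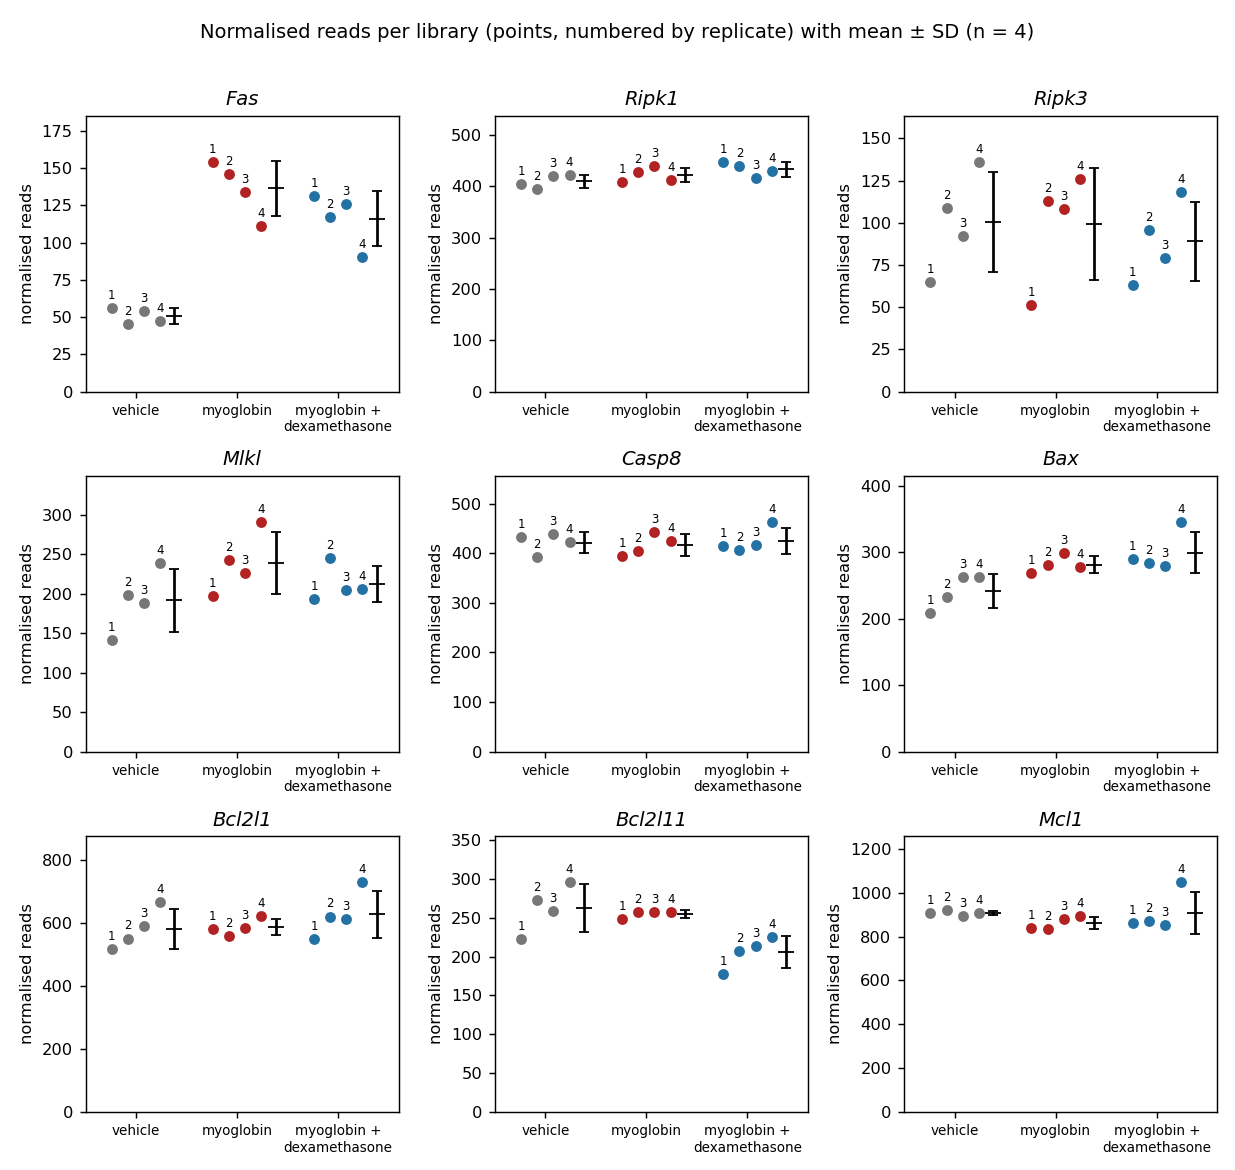
Deposited normalised values (vertical axes) of the 9 members in the 4 libraries of each group (points numbered by replicate, with mean ± SD beside them). Fas with myoglobin lies at 111 to 154, above all vehicle libraries at 45 to 56. Bcl2l11 with both agents lies at 177 to 225, below all myoglobin libraries at 248 to 258.

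Casp8, which encodes the protease that Fas engages (ENSMUSG00000026029, chromosome 1, 58795374 to 58847503), gave similar values in the 3 groups. Vehicle libraries gave 432, 392, 440 and 423, myoglobin libraries 395, 404, 444 and 425, and those with both agents 415, 406, 417 and 463. All 3 groups overlapped. The log2 change was -0.02 ± 0.05 with myoglobin (95% interval -0.13 to 0.10, adjusted p 0.876) and 0.03 ± 0.05 when dexamethasone was added (adjusted p 0.801), or -0.01 without replicate 4 of both agents.

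Ripk1, the kinase and scaffold at the receptor complex (ENSMUSG00000021408, chromosome 13, 34002363 to 34037147), also varied little. Its values were 404, 394, 419 and 421 with vehicle, 408, 427, 439 and 412 with myoglobin, and 447, 440, 415 and 429 with both agents. The groups overlapped in every comparison, and the spread within a group was 3.13% to 3.38% of the mean. Changes were 0.04 ± 0.04 with myoglobin (95% interval -0.05 to 0.13, adjusted p 0.566) and 0.08 ± 0.04 with both agents against vehicle (adjusted p 0.175). Its exons share 511 bases (6.12% of their length) with Gm17084 on the same strand and 241 bases with Serpinb6a on the opposite strand. The kit is a stranded one, but whether the counting used strand is not given in the sources used here.

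Ripk3, the kinase that acts on MLKL (ENSMUSG00000022221, chromosome 14, 55784995 to 55788865, reverse strand), varied most within groups. Vehicle libraries gave 65, 109, 92 and 136, myoglobin libraries 51, 113, 108 and 126, and libraries with both agents 63, 96, 79 and 118. Replicate 1 was lowest and replicate 4 highest in each of the 3 groups, and the groups overlapped throughout. The SD was 26.5% to 33.4% of the mean, against 3.13% to 3.38% for Ripk1. The change with myoglobin was -0.04 ± 0.27 (adjusted p 0.939), and its interval of -0.62 to 0.54 is the widest of the 9, so that a change of this gene was less well bounded than that of the others. Adding dexamethasone gave -0.12 ± 0.27 (adjusted p 0.835), or -0.27 without replicate 4 of both agents. That fit kept replicate 4 of myoglobin, at 126 the highest of its group, so that the removal was one-sided.

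Mlkl, the executor of necroptosis (ENSMUSG00000012519, chromosome 8, 111311797 to 111338177, reverse strand), stood at 142, 198, 188 and 239 with vehicle and at 197, 243, 227 and 291 with myoglobin. The groups overlapped, and replicate 1 was lowest in both. The log2 change of 0.33 ± 0.14 did not pass (unadjusted p 0.0313, adjusted p 0.12). It passed without vehicle replicate 4, the highest of its group, at 0.44 and an adjusted p of 0.0337, and with array quality weights (adjusted p 0.0386). In all it passed under 5 of the 25 alternatives (limma adjusted p 5.2e-05 to 0.0386), among them fits that treat same-numbered libraries as a block. With both agents Mlkl was at 193, 246, 205 and 206, which overlapped both other groups (-0.16 ± 0.14 against myoglobin, adjusted p 0.517). Against vehicle the change with both agents was 0.17 ± 0.14 (adjusted p 0.392), and it passed under 2 of the 25 alternatives. Summed podocyte markers were likewise lowest in replicate 1 of each group, at 291, 288 and 332, against up to 458, 365 and 385 in the others. Their part in the spread of Ripk3 and Mlkl was not tested.

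Bax, the pore-forming member (ENSMUSG00000003873, chromosome 7, 45461697 to 45466898, reverse strand), gave 209, 233, 263 and 262 with vehicle and 268, 280, 298 and 278 with myoglobin. All myoglobin libraries lay above all vehicle libraries. The change of 0.22 ± 0.08 fell short of the threshold (adjusted p 0.0727) and passed without replicate 4 of both agents, which shares the estimate of spread (adjusted p 0.0238). It also passed under TMM scaling (0.0486), with array quality weights (0.0135) and with only the 2 groups compared (0.0434). In all it passed under 7 of the 25 alternatives, the replicate block among them. With both agents the values were 289, 283, 279 and 345, again all above vehicle, and Bax rose by 0.31 ± 0.08 against vehicle (adjusted p 0.0106). Replicate 4 was the highest of them, and without it the rise was 0.24 (adjusted p 0.0231). Adding dexamethasone to myoglobin gave 0.08 ± 0.08 (adjusted p 0.571), or 0.01 without replicate 4 (adjusted p 0.934). Bax exons share 192 bases (12.2%) with Gm45808 on the same strand, and its value is uncertain to that extent.

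Bcl2l1, the BCL-XL gene (ENSMUSG00000007659, chromosome 2, 152780668 to 152831728, reverse strand), did not pass in any comparison. Its values were 518, 551, 590 and 667 with vehicle, 582, 559, 585 and 622 with myoglobin, and 550, 621, 614 and 730 with both agents. Replicate 4 was highest in each group, and the groups overlapped. Changes were 0.02 ± 0.08 with myoglobin (95% interval -0.15 to 0.19, adjusted p 0.906) and 0.09 ± 0.08 when dexamethasone was added (adjusted p 0.533). The latter was 0.02 without replicate 4 of both agents (adjusted p 0.915), in a fit that kept replicate 4 of myoglobin, at 622.

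Mcl1, a short-lived guard protein (ENSMUSG00000038612, chromosome 3, 95658788 to 95663176), gave 909, 920, 895 and 906 with vehicle and 839, 835, 882 and 892 with myoglobin. Every myoglobin library was below every vehicle library, by a difference of -0.07 ± 0.06 that did not pass (adjusted p 0.413). With both agents the values were 860, 871, 851 and 1048. Replicate 4 stood far above the other 3, and without it the change from myoglobin went from 0.07 to -0.00. Fas, Bax and Mcl1 were thus the 3 members whose myoglobin and vehicle libraries did not overlap, beside 25.0% of all tested genes.

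Adding dexamethasone to myoglobin asks how the glucocorticoid alters the injured state. Of the members 1, Bcl2l11, fell, and 0 rose, beside 6.98% of all tested genes that passed, 3.08% higher and 3.9% lower. It was also the 1 member whose groups did not overlap, beside 13.2% of all genes (7.03% higher and 6.19% lower), and the 1 with an unadjusted p below 0.05, beside 22.2%. The median log2 change of the members was 0.03, beside 0.01 for all tested genes.

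Bcl2l11, the BIM gene (ENSMUSG00000027381, chromosome 2, 128126038 to 128162547), stood at 248, 257, 257 and 258 with myoglobin and at 177, 207, 214 and 225 with both agents. All libraries with both agents were lower than all with myoglobin, and the myoglobin libraries were unusually close to each other. The log2 change was -0.31 ± 0.08, or -19.5%, with an interval of -0.49 to -0.13 (limma adjusted p 0.0348). This call is near the threshold. It was lost when replicate 3 of vehicle, any of the 4 myoglobin replicates, or replicate 1, 2 or 3 of both agents was left out (adjusted p 0.0502 to 0.0963), and in limma without a mean-variance trend (adjusted p 0.0726). It held when the shallow replicate 4 was left out, at -0.36 (adjusted p 0.017).

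Vehicle libraries of Bcl2l11 gave 223, 273, 259 and 296, so that replicate 1 was lowest and replicate 4 highest in each of the 3 groups. Myoglobin alone gave -0.04 ± 0.08 (adjusted p 0.824). Both agents against vehicle gave a fall of -0.35 ± 0.08 (adjusted p 0.00604) that held under all 25 alternatives, although vehicle replicate 1, at 223, lay under the highest library with both agents. These comparisons share their libraries with the one before and are not independent of it.

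Both agents against vehicle gave 3 members that passed: Fas and Bax rose and Bcl2l11 fell, beside 28.6% of all tested genes, 13.9% higher and 14.6% lower. Fas and Bax were also the 2 members without overlap, beside 28.6% of all genes, and at an unadjusted p below 0.05 the members numbered 3, beside 40.6%. The split of all passing genes was 2029 higher and 2132 lower as deposited, 1347 and 2935 under upper-quartile scaling, and 1565 and 2648 under scaling to library totals. The remaining 6 members passed in none of the 3 comparisons.

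**Figure D2:**
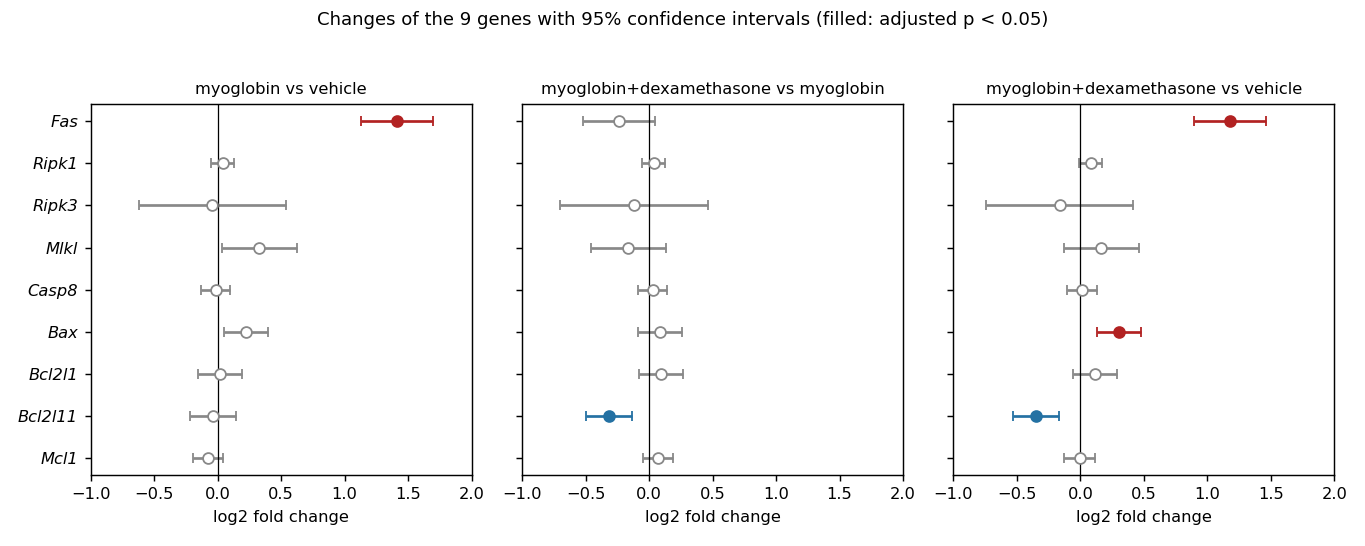
Log2 fold change (horizontal axis) of the 9 members in the 3 comparisons, as points with 95% intervals, filled where the adjusted p was below 0.05 (red higher, blue lower). Fas with myoglobin lies at 1.41, Bcl2l11 with dexamethasone added at -0.31, and the interval of Ripk3 is the widest, from -0.62 to 0.54 with myoglobin.

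Per kilobase of exonic sequence, with all annotated exons of a gene joined, the order of levels in vehicle was led by Mcl1 at 265.5 ± 3.01 (SD, n = 4). Bax followed at 153 ± 16.4, Casp8 at 146 ± 7.26 and Bcl2l1 at 127 ± 14.0, and neighbours among these last 3 did not differ beyond their ranges. Mlkl lay at 83.3 ± 17.3, above Ripk1 at 49.1 ± 1.54 and Ripk3 at 43.8 ± 13.0, which overlapped. Bcl2l11 at 32.7 ± 3.81 overlapped Ripk3 and stood above Fas, which was last at 24.5 ± 2.58. With myoglobin Fas moved to sixth place at 66.1 ± 9.08, above Ripk1 at 50.5 ± 1.71 without overlap, and Bcl2l11 became last at 31.8 ± 0.584. With both agents Fas was at 56.3 ± 8.86, overlapping Ripk1, and Bcl2l11 at 25.6 ± 2.56. On this scale Fas was thus the lowest of the 9 with vehicle and lay above Ripk1 with myoglobin, while the guard Mcl1 was first in every group. The joined length, 2062 bases for Fas and 8344 for Ripk1, can exceed that of the transcripts present. Which transcripts were present was not tested, so the order between genes may differ per transcript.

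Ratios within a library compare opposing members on this per-kilobase scale and are given as a description. Bax to Bcl2l1 was 1.21 ± 0.068 with vehicle, 1.40 ± 0.088 with myoglobin and 1.39 ± 0.097 with both agents (SD, n = 4). Bcl2l11 to Bcl2l1 was 0.258 ± 0.017, 0.248 ± 0.011 and 0.187 ± 0.0098 in the same order, and the libraries with both agents, at 0.176 to 0.199, did not reach the lowest vehicle or myoglobin library. Bcl2l11 to Mcl1 was 0.123 ± 0.014, 0.126 ± 0.0035 and 0.0968 ± 0.0089. Here the libraries with both agents, at up to 0.107, overlapped vehicle, which went down to 0.104, but not myoglobin, which went down to 0.123. A ratio shows unequal change and not which gene moved.

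**Figure D3:**
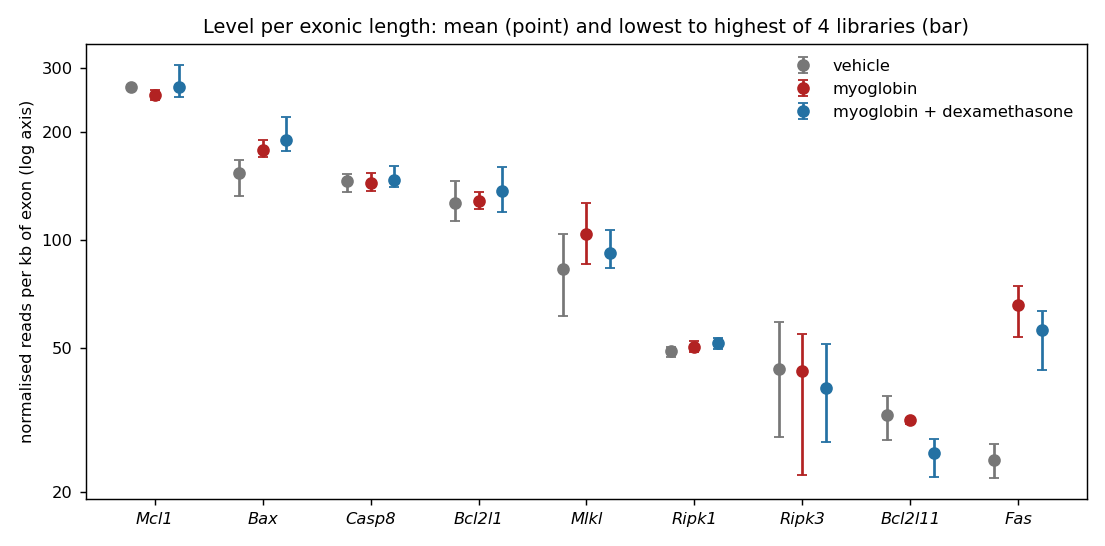
Value per kilobase of exonic sequence (log axis) of the 9 members by group, as the mean (point) and the lowest to highest of 4 libraries (bar). Mcl1 is first in each group, and Fas goes from last place with vehicle, at 24.5, to sixth with myoglobin, at 66.1.

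The genes that act around the 9 members were read from 7 pathway lists of 80 genes, 74 of them in the table and tested. The lists were chosen with earlier results of these data known, so that the counts below describe them and are no test. With myoglobin 17 rose and 3 fell, where 8.71% of all tested genes were higher and 9.62% lower. Without the shallow replicate 4 of both agents it was 21 and 4, with 26.1% of all tested genes passing in place of 18.3%. Over the 12 settings that each leave out 1 library the rises ranged from 12 to 21.

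Among the ligands 4 of 6 tested genes rose and 0 fell, in each of these settings. Tnfsf15, the ligand of the receptor DR3, went from 46, 49, 39 and 42 to 321, 303, 256 and 300, so that all myoglobin libraries were far above all vehicle libraries (log2 change 2.72 ± 0.11, limma adjusted p 6.12e-11). Tnf, the ligand of the TNF receptors, rose by 1.34 ± 0.04 and Ltb, which encodes lymphotoxin beta, by 1.30 ± 0.07. Tnfsf10, the TRAIL gene, was at 599 to 700 with vehicle and 783 to 838 with myoglobin, a rise of 0.33 ± 0.06 (adjusted p 0.00109). Fasl, which encodes the ligand of Fas itself, was on the list but was not found among the genes of the table, so it is not analysed here. This does not show whether it was expressed.

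Among 10 receptors 1 rose and 2 fell with myoglobin. Tnfrsf10b, the mouse TRAIL receptor, went from 234 to 305 with vehicle to 320 to 330 with myoglobin, and rose by 0.28 ± 0.08 (adjusted p 0.0149). Ngfr, the neurotrophin receptor p75, fell by 1.15 ± 0.29 on the log2 scale with overlapping groups (60 to 172 and 30 to 76). Tnfrsf21, the receptor DR6, fell by 0.17 ± 0.04.

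Among 21 adaptors, ubiquitin ligases and brakes of the receptor complex 8 rose and 1 fell. The leading rises were those of Birc3, a ubiquitin ligase that restrains RIPK1, by 1.11 ± 0.05 (303 to 312 with vehicle and 618 to 715 with myoglobin), and of Tnfaip3, the ubiquitin editor A20, by 0.90 ± 0.06. Spata2, Traf2 and Ikbkb rose by 0.26, 0.24 and 0.24. Birc2, Ikbkg and Cyld rose by 0.17, 0.22 and 0.14, and leaving out 1 library ended the call of Birc2 for 7 libraries (vehicle replicates 2 to 4 and all of myoglobin), of Ikbkg for 6 (vehicle 2 to 4 and myoglobin 1, 3 and 4) and of Cyld for 2 (replicate 2 of vehicle or myoglobin). Faim2, an inhibitor of Fas signalling, fell by 0.74 ± 0.17. Cflar, the caspase-8-like inhibitor cFLIP, gave -0.04 ± 0.04 and Fadd, the Fas adaptor, 0.02 ± 0.05, and neither passed.

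Among 10 necroptosis partners Tlr4, the endotoxin receptor, was the 1 that rose, by 0.24 ± 0.06 (adjusted p 0.00859). Of 4 tested multidomain BCL-2 genes beyond the members 0 passed in limma and 0 had an unadjusted p below 0.05. Bcl2 came nearest, at -0.08 (adjusted p 0.234). Of 8 BH3-only genes 1 rose: Bid, the link by which caspase-8 reaches the mitochondrion, at 275 to 297 with vehicle and 372 to 415 with myoglobin (0.45 ± 0.05, adjusted p 6.12e-06). Of 15 genes of the apoptosome, caspases and their inhibitors 2 rose, among them Dffa, the inhibitor of the caspase-activated nuclease, by 0.19 (adjusted p 0.0491). The call of Dffa was lost without vehicle replicate 1, 2 or 3, myoglobin replicate 2, 3 or 4, or replicate 2 or 3 of both agents, and the count of this list ranged from 0 to 3 rises over the libraries left out.

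**Figure D4:**
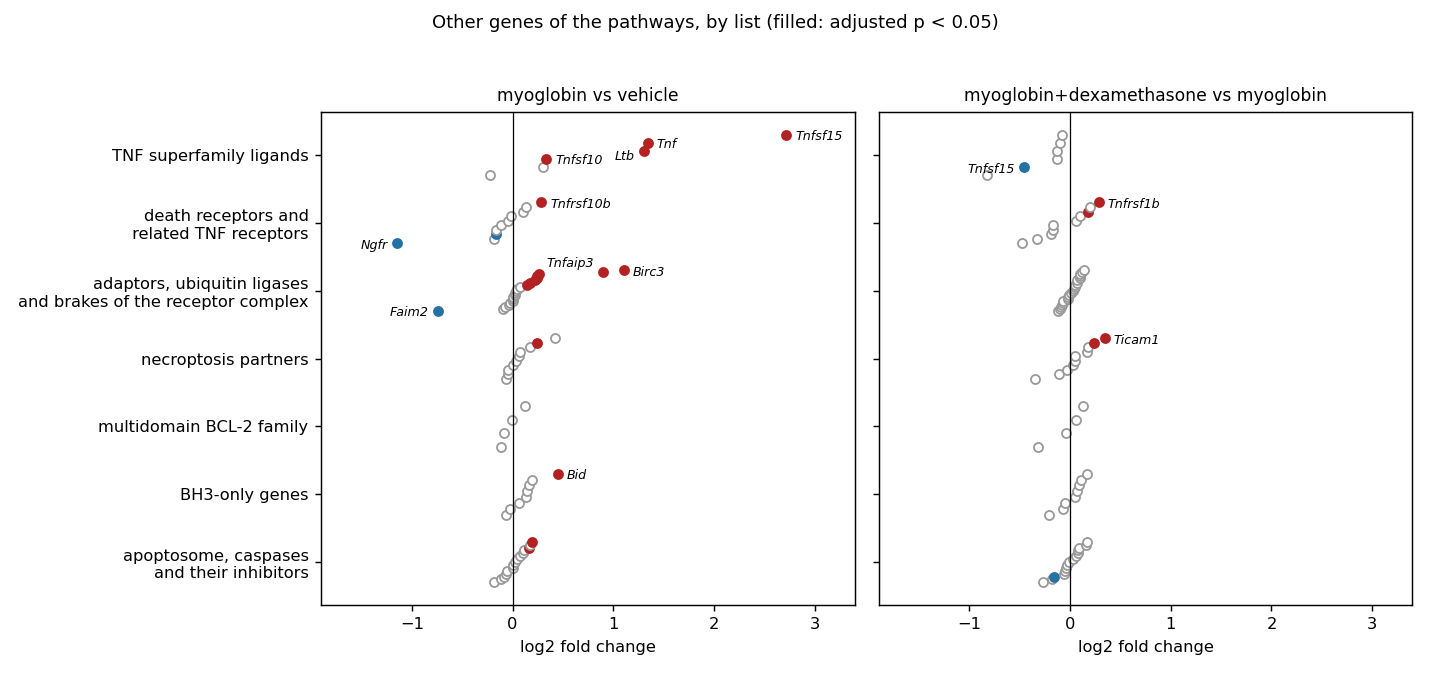
Log2 fold change (horizontal axes) of the 74 tested pathway genes by list (rows), with myoglobin against vehicle on the left and with dexamethasone added to myoglobin on the right. Each point is 1 gene, filled where it passed at an adjusted p below 0.05 (red higher, blue lower). Tnfsf15 lies farthest right in the left panel at 2.72 and at -0.46 in the right panel.

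When dexamethasone was added, 4 of the 74 pathway genes rose and 2 fell, beside 6.98% of all tested genes that passed. Without the shallow replicate 4 the counts were 5 and 4, beside 8.81%. Both counts are near the share over all genes. Ltb and Tnfrsf10b passed only in the latter of these, with -0.22 (adjusted p 0.0187) and -0.25 (adjusted p 0.0359). Tnfsf15 fell by 0.46 ± 0.11, to 238, 208, 237 and 179 (adjusted p 0.0163), which left it well above vehicle. Its call was lost without myoglobin replicate 2 or 4 (adjusted p 0.0554 and 0.0542). Tnf, at 415 to 440 against 452 to 469 with myoglobin, did not pass (-0.10 ± 0.04, adjusted p 0.188).

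The 2 receptors that rose with dexamethasone were Tnfrsf1b, the second TNF receptor, by 0.28 ± 0.04 (893 to 928 with myoglobin and 1070 to 1194 with both agents, adjusted p 9.72e-04), and Tnfrsf21, by 0.17 ± 0.04 (adjusted p 0.0179). The latter call was lost without myoglobin replicate 2 or 4 (adjusted p 0.052 and 0.0503). Ticam1, the adaptor TRIF with the RIPK-binding motif, rose by 0.34 ± 0.07, from 207 to 240 up to 256 to 297 (adjusted p 0.00773). Chmp2a, a membrane repair subunit, passed barely (0.23 ± 0.07, adjusted p 0.0498), and leaving out any single library other than replicate 3 of both agents ended the call.

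Of 21 receptor-complex genes 0 passed in limma and 5 had an unadjusted p below 0.05, with Sharpin nearest (0.13 ± 0.04, adjusted p 0.0681). Among multidomain BCL-2 genes 0 passed and 2 had an unadjusted p below 0.05, with Bcl2l2, which encodes the guard BCL-W, nearest at 0.13 ± 0.04 (adjusted p 0.0525). Bcl2l2 passed without replicate 4 of both agents, at 0.14 (adjusted p 0.0343), and with array quality weights (adjusted p 0.0123). Of 8 BH3-only genes beyond Bcl2l11 0 passed and 0 had an unadjusted p below 0.05. Bmf, a BH3-only relative of BIM, was at 0.17 ± 0.10 (adjusted p 0.341). Casp2, an initiator caspase, fell by 0.16 ± 0.04 (adjusted p 0.0275), a call lost without myoglobin replicate 1, 2 or 4 or replicate 1, 2 or 3 of both agents (adjusted p 0.0505 to 0.0894). With both agents against vehicle 23 of the 74 rose and 5 fell, beside 13.9% and 14.6% of all tested genes.

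By Pearson's r of log2(value + 1) over the 12 libraries, and leaving out predicted genes, the patterns nearest to Fas were those of Rgs8 (0.986), Pde4b (0.985) and Prox1 (0.982). Nearest to Bax were Ltf (0.965), Gpx2 (0.951) and Sdc1 (0.948). Nearest to Bcl2l11 were E2f8 (0.969), Bub1b (0.963) and Cdca2 (0.959). E2f8 averaged 475 with vehicle, 448 with myoglobin and 332 with both agents, and Bub1b 539, 530 and 391, an order of groups that Bcl2l11 shares. These values describe likeness across libraries that share treatments, and have no test.

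Markers of other cells are given for the libraries in which the members were compared. Fibroblast markers summed to 84 to 151 with vehicle, 78 to 143 with myoglobin and 59 to 82 with both agents, and leukocyte markers to 571 to 694, 486 to 587 and 529 to 631. With myoglobin Ptprc (-0.38) and Pdgfra (-0.76) fell, 1 of 4 tested leukocyte and 1 of 5 tested fibroblast markers. When dexamethasone was added, Ptprc (0.31), the podocyte marker Synpo (0.29), Foxi1 (0.97) and Calb1 (0.30) rose. With both agents against vehicle 1 leukocyte and 2 fibroblast markers fell, and of 4 podocyte markers 1 rose and 1 fell. Of 6 tested distal nephron markers 5 fell with myoglobin: Aqp2 (-2.58), Foxi1 (-2.51), Slc12a3 (-1.18), Umod (-1.06) and Scnn1b (-0.76), on the log2 scale. These 5 were also lower than vehicle with both agents, by -2.44, -1.55, -0.74, -1.02 and -0.75. Calb1, the most abundant of the list, rose by 0.31 with myoglobin and by 0.61 with both agents against vehicle, and carries the list's sum of 3077 to 3827, 2534 to 2892 and 3215 to 3568. Of the 7 tubular epithelium markers 0 passed in any comparison, and Epcam, Krt8, Krt18 and Cdh1 were highest in replicate 4 of both agents, at 1488, 980, 1330 and 3384. Proximal tubule markers, almost wholly Lrp2, summed to 252 to 291, 383 to 470 and 314 to 399, and Lrp2 rose by 0.73 with myoglobin. The other tested markers of this list, Aqp1 and Hnf4a, gave -0.97 and -0.22 and did not pass (limma adjusted p 0.108 and 0.707). Among the listed markers found in the gene table, none was at 0 in every library of a group. These were 6 of 7 for proximal tubule, 6 of 7 for distal nephron, 7 of 8 for leukocytes, and all of the other lists. The part of these shifts in the changes of the members was not tested.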

How the data were processed

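Messenger RNA of 12 libraries was measured, 4 each with vehicle, myoglobin, and myoglobin with dexamethasone. Stranded libraries were made, per the labels' protocols. Build mm10, DESeq2 1.36.0, featureCounts 2.0.3, Picard 2.27.4, STAR 2.7.10a and Trimmomatic 0.39 are listed, without roles, per the submitters' processing notes. The deposited table holds a normalised score per gene, read from its whole-number steps as reads that the authors scaled by library size factors and rounded, not counts. It has 0 columns of other samples, and 20592 genes (98.9%) have the same coordinates in GENCODE M21, which gave exonic lengths.

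The test took the 14558 genes, all 9 members among them, that reached 10 in 4 or more libraries. limma 3.58.1 in R 4.3.3 was fitted with a mean-variance trend on log2(value + 1), with 3 groups sharing 1 spread estimate. Two-sided p-values were adjusted by Benjamini-Hochberg over all genes of a comparison. Fold changes understate low genes because of the pseudocount of 1. Nothing says that the libraries of a group came from separate animals, so that p-values measure only the spread between these samples, which may be technical. The size factors and the 4 libraries per group set the precision.

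The members and lists were chosen with earlier results of these data known. Named are all members. From each pathway list, genes that passed with myoglobin or with dexamethasone added may be named, at least the 2 of smallest p, or the 1 of smallest p where none passed. The 3 genes of highest r are named for members that passed. Fadd, Cflar and Tnf with dexamethasone added were named after their values were seen. Alternatives were other pseudocounts, no filter, other scalings, array weights, a replicate block, subsets of groups and leaving out each library. Tables and plots used Python 3.11.15, pandas 2.3.3 and matplotlib 3.10.9. A pathway gene that passed is not reported here.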

Additional observations from a re-analysis of the deposited data

Results flagged for a closer look

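Groups of 4 libraries were examined for a library far from the other 3, by Dixon's test, in 111 combinations of gene and group, of which 27 are of members. There were 7 such values among the 111, near the share of about 1 in 20 that chance gives, and 3 of them were of members. In replicate 4 of both agents Bax stood at 345 and Mcl1 at 1048, each the highest of its group, and Bcl2l11 in myoglobin replicate 1 stood at 248, just under the tight values of the other 3. Among pathway genes, replicate 4 of both agents was far from the rest for Chmp2a (394), Cyld (603) and Traf2 (403), and vehicle replicate 1 for Faim2 (97). In all, 5 of the 7 lie in replicate 4 of both agents, the library with 3.25 M estimated reads. Whether that depth bears on them was not tested.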

How the results depend on the processing

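For the members, 675 values under 25 alternatives were computed, of which 618 kept their direction and side of the threshold, 9 lost a call, 15 gained one, 33 changed sign without passing, and 0 passing values changed sign. The 9 lost calls were all of Bcl2l11 with dexamethasone added. With myoglobin, members that passed numbered 1 as reported, 2 under TMM scaling (Fas and Bax), 3 with array quality weights (Fas, Mlkl and Bax), 2 with only the 2 groups compared, and 1 to 2 when 1 library was left out. All genes that passed with myoglobin numbered 2669 as reported, 4314 with array quality weights, and 2037 to 3789 when 1 library was left out. With dexamethasone added, all genes that passed numbered 1016 as reported, 1625 with array quality weights, 645 with only the 2 groups compared, 549 without myoglobin replicate 4, 616 without myoglobin replicate 2, and 549 to 1279 over the libraries left out. Members that passed then numbered 1 as reported, 0 in limma without a trend (1 at an unadjusted p below 0.05 as reported) and 0 to 1 when 1 library was left out. With both agents against vehicle, members that passed numbered 3 in each setting that leaves out 1 library, and all genes 3130 to 4226 beside 4161. Except where a setting tests fewer samples, the cause was not tested. Fas had the lowest vehicle values of the members, at 45 to 56, with an SE of 0.13 for its change with myoglobin. Ripk3, at 65 to 136 with vehicle, had an SE of 0.27. The part of depth in this was not tested.

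The labels give each group replicates 1 to 4. Same-numbered libraries of different groups deviated together with r from -0.0151 to 0.456 over 12 pairs, against -0.403 to 0.196 over 36 pairs of other numbers, and a library correlated best with its own number in 20 of 24 combinations, a hint from the data and not from the design. The labels tie no number to a mouse, and 9 of the 12 same-number pairs, not all, exceeded an r of 0.1, the bar set for taking numbers as pairs, so that the block stayed an alternative. With the replicate block, 3503, 1788 and 5272 genes passed with myoglobin, with dexamethasone added and with both agents against vehicle, and 3, 1 and 3 members, Mlkl and Bax joining Fas with myoglobin. In a pair of settings chosen after seeing the data, the replicate block without replicate 4 of both agents gave 5184 and 2099 genes and 4 members with myoglobin (Mcl1 added, lower), and the block with array quality weights gave 5408 and 2249 genes and 3 members. With both agents against vehicle each of these settings gave 4 members, beside 5294 and 5729 genes. Mlkl was the member added there, higher (limma adjusted p 9.67e-04 to 0.0019).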
